A study of Homo sapiens with 42 samples.

Results

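The effect of enzymatic repair of RNA ends was measured in small RNA libraries of a THP-1 group called E4 in the labels. THP-1 is a human monocytic leukaemia cell line. The series addresses POLR3G and POLR3GL, alternative subunits of RNA polymerase III, and its design text gives THP-1 knockouts and HEK293T cells transfected with antisense oligonucleotides. Which subunit gene was targeted in E4, and whether E4 is a single clone, is not given in the labels, and the treatment text attached to these samples describes the oligonucleotide transfection that the design assigns to HEK293T. All 6 E4 libraries of the 42 in the series were used, 3 treated with Antarctic phosphatase and T4 polynucleotide kinase (PNK) before adapter ligation and 3 not treated, chosen by these labels; 30 of the 42 samples have a count column. Both arms came from small RNA enriched with the mirVana PARIS kit from cells that the labels place at passages 10 to 15, and both were made into libraries with the NEBNext small RNA kit, so they differ in the labels in the enzyme step only. The unedited THP-1 controls are not analysed here. Nothing in the labels says that the 3 numbered libraries come from separate cultures, so the p-values measure the spread between these libraries, which may be technical.

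Small RNA kits of this kind join adapters to a 5′ monophosphate and a 3′ hydroxyl, the ends that Drosha and Dicer leave on mature microRNAs (miRNAs), the short guides of Argonaute proteins. Many other RNAs and RNA fragments end otherwise. RNA polymerase III transcripts begin with a 5′ triphosphate, spliceosomal small nuclear RNAs (snRNAs) with a cap, and the products of many endonucleases with a 5′ hydroxyl and end with a 3′ phosphate or a cyclic phosphate. PNK adds a phosphate to a 5′ hydroxyl and removes 3′ and cyclic phosphates, phosphatase removes phosphates, and neither enzyme opens a cap.

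The miRNAs as a family lost more of their share in E4 than any other family. Shown are the blood lineage markers MIR142, MIR155 and MIR223 and the abundant loci MIR21, MIR92A1 and MIR191, whose values are given for each library. The mature sequences, from RefSeq on GRCh38.p14, are shown 5′ to 3′ with the seed, bases 2 to 8, in capitals. The 11 sequences hold 11 different seeds.
hsa-miR-21-5p: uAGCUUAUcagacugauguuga
hsa-miR-155-5p: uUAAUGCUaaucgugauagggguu
hsa-miR-155-3p: cUCCUACAuauuagcauuaaca
hsa-miR-142-5p: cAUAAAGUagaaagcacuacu
hsa-miR-142-3p: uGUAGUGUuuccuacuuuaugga
hsa-miR-223-5p: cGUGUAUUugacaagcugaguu
hsa-miR-223-3p: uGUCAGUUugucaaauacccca
hsa-miR-92a-1-5p: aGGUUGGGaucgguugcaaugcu
hsa-miR-92a-3p: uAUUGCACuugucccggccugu
hsa-miR-191-5p: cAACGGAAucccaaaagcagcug
hsa-miR-191-3p: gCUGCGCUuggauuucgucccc

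The C/D box small nucleolar RNAs (snoRNAs) guide methylation of ribosomal RNA and were the bulk of every untreated library. SNORD49A and SNORD2, among the most abundant, are set beside SNORD117, which went the other way; the sequences are GENCODE version 29 transcripts on GRCh38, with the C box core TGATG and the D box CTGA in capitals. SNORD49A lies at chr17:16440036-16440106, plus strand, SNORD2 at chr3:186784796-186784864, plus strand, and SNORD117 at chr6:31536374-31536449, minus strand. On the sense strand, both motifs were found within 15 bases of the ends in 84.6% of the 143 tested C/D rows that have a sequence and in 1 of 84 H/ACA rows (1.19%).
SNORD49A: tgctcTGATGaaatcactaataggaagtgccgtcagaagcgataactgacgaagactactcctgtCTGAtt
SNORD2: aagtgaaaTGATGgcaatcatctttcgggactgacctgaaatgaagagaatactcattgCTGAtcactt
SNORD117: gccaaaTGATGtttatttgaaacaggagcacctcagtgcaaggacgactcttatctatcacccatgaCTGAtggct

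Vault RNAs, small RNA polymerase III products of the vault particle and its relatives, and mitochondrial tRNAs are shown for the contrasts between their members. VTRNA2-1 (chr5:136080497-136080597, minus strand) rose and VTRNA1-3 (chr5:140726159-140726246, plus strand) fell. Among mitochondrial tRNAs, MT-TY (tyrosine, chrM:5826-5891, minus strand) and MT-TL2 (leucine, chrM:12266-12336, plus strand) rose the most and MT-TI (isoleucine, chrM:4263-4331, plus strand) the least. These are also GENCODE version 29 sequences, all in lower case because no motif is marked.
VTRNA2-1: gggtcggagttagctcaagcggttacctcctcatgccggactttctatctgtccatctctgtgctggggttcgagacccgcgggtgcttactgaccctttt
VTRNA1-3: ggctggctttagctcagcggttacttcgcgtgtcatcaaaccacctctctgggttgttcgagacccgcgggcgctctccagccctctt
MT-TY: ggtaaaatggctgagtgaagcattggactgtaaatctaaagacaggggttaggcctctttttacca
MT-TL2: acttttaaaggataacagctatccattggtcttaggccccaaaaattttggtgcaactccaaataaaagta
MT-TI: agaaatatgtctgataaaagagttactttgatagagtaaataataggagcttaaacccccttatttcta

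The deposited table gives raw read counts for 175946 genome intervals, called rows here, many of which overlap. A non-overlapping set of 86008 rows was kept, with short structured RNAs given priority, and values are shares of the counts in that set, in percent or in counts per 1000000 (CPM). The kept totals were 10994227, 11081933 and 10774145 counts in untreated libraries 1 to 3 and 7042121, 7426473 and 7626007 counts in treated ones. Untreated libraries had a count in 8771 to 8927 rows and treated ones in 21837 to 22303. Counts ignored strand, and a row also took up reads that began outside it: 7 long rows that end up to 21 bases from an miRNA held at least 90% of its counts, and none of 12 rows at 26 bases or more did. Of 62 rows over a single arm of a hairpin, 50 held at least 99% of the counts of the whole hairpin, so the arms of an miRNA cannot be told apart and adjoining rows share reads. Tests were edgeR quasi-likelihood tests of 3 against 3 libraries on shares of library total, with Benjamini-Hochberg adjustment over all rows or groups fitted and a threshold of 0.05.

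The cell label was checked against miRNA markers in the untreated libraries. The 7 haematopoietic loci summed to 8700, 7843 and 8711 CPM, although the lymphocyte marker MIR150 was nearly absent, with counts in 1 of the 3 untreated libraries, at 0.0902 CPM. The 3 erythroid loci summed to 20.01, 25.3 and 22.4 CPM, nearly all from the row of MIR486-1 and MIR486-2, with MIR144 and MIR451A each under 1 CPM. Muscle loci and the liver marker MIR122 each had counts in 1 of the 3 untreated libraries, at 0.0902 CPM. The neuronal list reached 2558, 2416 and 2701 CPM, nearly all of it from the 3 MIR9 loci, which encode the same mature miRNA. The fibroblast and smooth muscle list stood at 449, 404 and 430.1 CPM and the epithelial one at 54.4, 51.8 and 55.2 CPM. In treated libraries the haematopoietic sum was 351, 316 and 319 CPM, a fall shared with most miRNAs. Untreated library 3 stood apart from libraries 1 and 2, with a chi-square per row of 218 and 382 against them, compared with 45.5 between libraries 1 and 2. Treated library 3 likewise stood apart, at 10.2 and 14.3 against 3.21 between treated libraries 1 and 2. Values without untreated library 3 are given where leaving it out altered the call of a named change within E4. Other values include it unless stated.

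Without PNK the libraries were mostly C/D snoRNA and miRNA, and with PNK they were mostly ribosomal RNA (rRNA) and transfer RNA (tRNA). Whether the reads came from whole RNAs or from fragments was not measured. C/D snoRNA fell from 66.4% ± 3.12 to 15.7% ± 1.60 (SD, n = 3) of counts and miRNA from 18.8% ± 0.750 to 0.661% ± 0.0309 (SD, n = 3). The 18S, 28S and 5.8S rRNA rows together rose from 9.55% ± 2.77 to 48.8% ± 1.73 (SD, n = 3) and nuclear tRNA from 2.11% ± 0.118 to 10.04% ± 0.664 (SD, n = 3), both lower with TMM. With DESeq2 factors nuclear tRNA is lower and the rRNA sum is not called (−0.30, adjusted p = 0.161, edgeR). Mitochondrial rRNA rose from 0.107% ± 0.0185 to 5.87% ± 0.146 (SD, n = 3) and mitochondrial tRNA from 0.293% ± 0.0268 to 3.95% ± 0.244 (SD, n = 3). Rows outside the named families, with PNK mostly rows that overlap exons of protein-coding genes, rose from 0.447% ± 0.0161 to 7.21% ± 0.154 (SD, n = 3). Of 29 family sums, 26 were called (89.7%), 23 higher (79.3%) and 3 lower (10.3%). The 3 lower families were C/D snoRNA, miRNA and the small Cajal body RNAs (scaRNAs). With miRNA factors C/D snoRNA and scaRNA are higher. The miRNA sum is then 0.038 (adjusted p = 0.66, edgeR), as that scale sets it near zero.

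**Figure D1:**
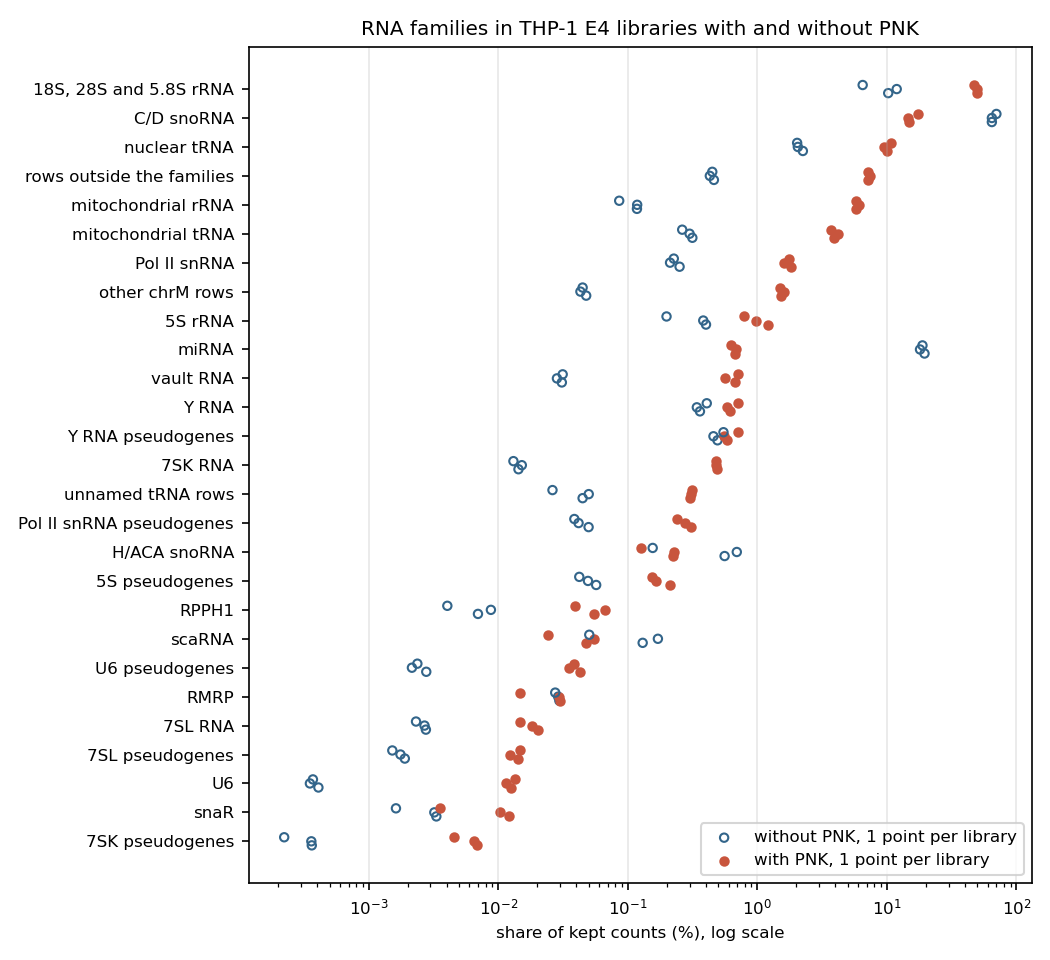
Share of kept counts (percent, log axis) for each RNA family in the 3 E4 libraries without PNK (open circles) and the 3 with it (filled circles), 1 point per library. C/D snoRNA and miRNA sit lower with PNK, at 15.7% and 0.661% on average, and rRNA, tRNA and mitochondrial RNA sit higher. Relative to TMM or DESeq2 factors the rRNA and nuclear tRNA shifts change sign, as do those of 5S rRNA and Y RNA among others. Relative to miRNA factors that of C/D snoRNA does, and that of miRNA is set near zero.

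Shares have a fixed sum, so the reading of a fold change depends on the scale. At the level of rows, 6802 of 7026 tested were called (96.8%), 6055 higher (86.2%) and 747 lower (10.6%), and the median log2 change was 5.98. Scaling with TMM factors lowered that median by 2.81 and gave 5188 higher and 1282 lower; scaling with DESeq2 size factors lowered it by 2.43 and gave 5474 and 1235. Scaling to the miRNA rows raised it by 4.70 and left 6721 higher and 92 lower. Higher rows were 89.0% of those called on library totals, 80.2% with TMM, 81.6% with DESeq2 factors and 98.7% with miRNA factors. All 747 lower rows remained lower with TMM and DESeq2 factors, and all 6055 higher rows remained higher with miRNA factors. The first 2 scales shift rows down and the last shifts them up, so these directions were fixed by the scaling and add no support. Changes are therefore given as shares of library total, with the other scales wherever they turn a direction. No scale measures the amount of an RNA per cell.

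**Figure D2:**
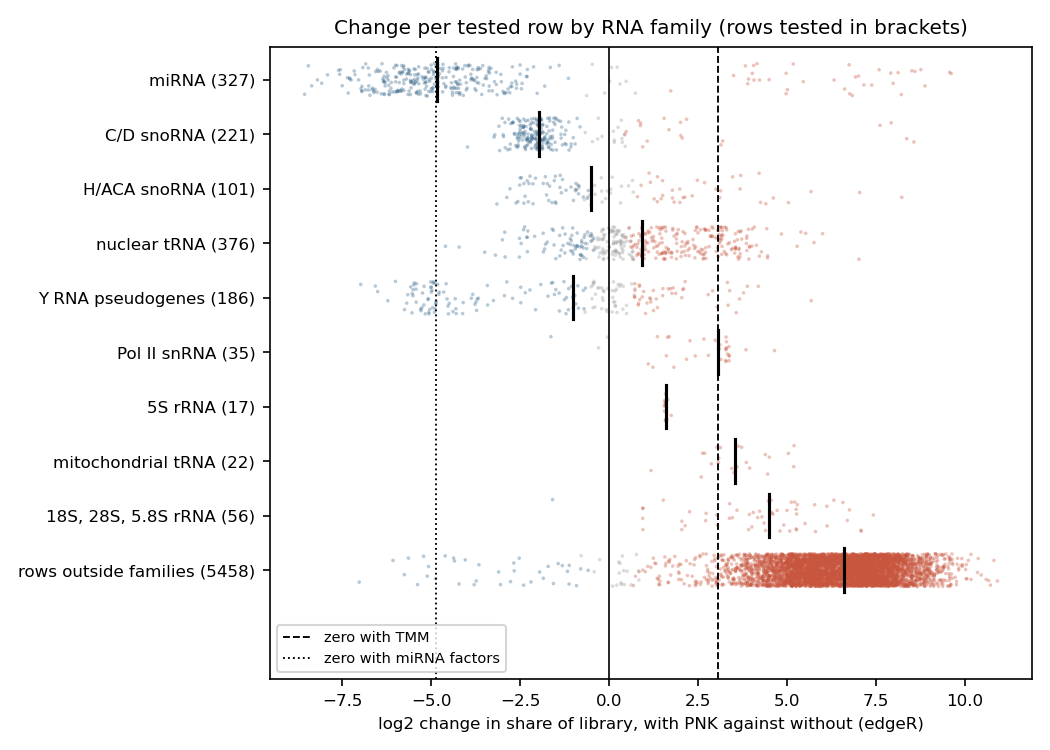
Log2 change in share of library with PNK against without for every tested row, by family, with red for rows higher, blue for rows lower and grey for rows not called, and a black tick at each median. The dashed and dotted lines mark where zero falls with TMM and with miRNA factors: most rows outside the families lie right of both lines, while tRNA rows lie on both sides of zero and mostly left of the dashed line.

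Nearly every abundant miRNA lost most of its share. The family fell 28.4-fold (19.5, 18.02 and 18.8% without PNK and 0.673, 0.684 and 0.626% with it, log2 change −4.83, SE 0.0761, adjusted p = 1.72e-08). TMM (−7.91) and DESeq2 factors shift rows down and so can only deepen this fall. On miRNA factors the change is 0.038, as that scale sets it near zero. Of 327 tested miRNA rows, 282 were lower, 36 higher and 9 not called, with a median log2 change of −4.84. MIR92A1, of the MIR17HG cluster, read 12450, 11740 and 11330 CPM without PNK and 677, 716 and 496 CPM with it, a fall of 18.8-fold. MIR21, abundant in many cancer lines, read 6764, 6409 and 7239 CPM without PNK and 83.5, 95.2 and 104 CPM with it (log2 change −6.17, SE 0.199, adjusted p = 2.96e-21). All treated libraries lay below all untreated ones for both, and the fall of MIR21 was 72.2-fold.

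The miRNAs of blood cells fell by factors between 18.8 and 80.1, differences that were not tested against each other. MIR142, a marker of blood cells, read 2214, 2104 and 2381 CPM without PNK and 29.1, 29.1 and 25.4 CPM with it, an 80.1-fold fall (log2 change −6.32, SE 0.206, adjusted p = 3.35e-21). MIR155, induced in activated leukocytes, read 5369, 4721 and 5309 CPM without PNK and 294, 258 and 270.1 CPM with it, a fall of 18.8-fold with log2 change −4.23 (SE 0.180). MIR223, the granulocyte and monocyte miRNA, read 495, 436 and 474 CPM without PNK and 17.2, 14.8 and 14.6 CPM with it, 30.2-fold lower. No libraries of the 2 arms overlapped for these loci, and relative to miRNA factors MIR155 is 0.64 higher, MIR142 remains lower and MIR223 is not called (−0.047, adjusted p = 0.822). MIR146A, a brake on innate immune signalling, fell by 6.18 on the log2 scale from 413, 386 and 340.4 CPM, and MIR191 by 4.67 from 8818, 8379 and 8230 CPM. With miRNA factors MIR191 is not called (0.20, adjusted p = 0.285, edgeR). Among the steepest falls past the abundance limit was MIR199A2, with 1885 counts in the untreated libraries and 4 in the treated ones. It read 65.03, 55.9 and 51.1 CPM without PNK and 0.284, 0 and 0.262 CPM with it.

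Some miRNA rows lost every count. MIR29B2 went from 169 counts over the 3 untreated libraries to 0, at least 37.9-fold lower against a limit of 3 counts over the group, MIR548O2 from 157 to 0 (at least 35.2-fold) and MIR556 from 147 to 0 (at least 33.0-fold). MIR660 kept 2 of 423 counts, a ratio of 142 (95% counting interval 39.1 to 1178).

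The 36 miRNA rows that rose were of another kind. They held 0.00183% of counts without PNK and 0.115% with it, and their median length was 60.5 bases against 23 for the 282 rows that fell. Of the 36, 16 overlap an exon of a protein-coding gene, 4 a mitochondrial pseudogene and 3 another pseudogene. Of the 282 that fell, 31 overlap a coding exon. MIR1973|copy3 read 0.364, 0.541 and 0.371 CPM without PNK and 205, 207 and 212 CPM with it. MIR6723, in the mitochondrial pseudogene MTCO1P12, read 1.46, 0.993 and 1.49 CPM without PNK and 225, 249.6 and 188 CPM with it (log2 change 7.38, SE 0.268, adjusted p = 2.72e-20). MIR10393 overlaps an exon of B2M, the light chain of class I antigen presentation, and read 0.728, 0.632 and 0.464 CPM without PNK and 70.7, 76.1 and 80.5 CPM with it. Reads of the host exon and of an miRNA cannot be told apart in these rows. MIR4709 went from 0 to 237 counts, at least 118-fold higher, and MIR4426 from 1 to 378, a ratio of 562 with a counting interval of 100.3 to 22260.

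C/D snoRNA remained the second largest family with PNK but fell 4.24-fold (64.6, 64.6 and 70.03% without PNK and 14.8, 14.6 and 17.5% with it; log2 change −2.09, SE 0.0878, adjusted p = 6.68e-07), and it is 2.78 higher with miRNA factors. Of 221 tested rows, 188 were lower, 19 higher and 14 not called. SNORD49A, the most abundant C/D row, read 75890, 71130 and 92050 CPM without PNK and 20530, 18530 and 26410 CPM with it, 3.65-fold lower (log2 change −1.87, SE 0.168, adjusted p = 1.43e-11). SNORD44, hosted with other snoRNAs by GAS5, read 69720, 65680 and 86530 CPM without PNK and 18790, 16930 and 22780 CPM with it, and SNORD2, an intronic snoRNA of EIF4A2, read 36780, 35740 and 43640 CPM without PNK and 5798, 5765 and 8738 CPM with it. Untreated and treated libraries did not overlap for any of these rows, and library 3 was the highest of each arm. The fall of SNORD2 was 5.72-fold. All 3, with SNORD81 at −2.22, are higher with miRNA factors.

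The C/D rows that rose were found mainly among the longer ones, a difference that was not tested. Of 44 rows up to 70 bases 43 were lower and 0 higher, of 103 from 71 to 90 bases 93 and 5, of 52 from 91 to 120 bases 44 and 6, and of 22 longer rows 8 and 8, with medians of −2.10, −1.99, −1.99 and 0.31. Across the 221 rows, which are not independent replicates, Spearman's rho between length and log2 change was 0.318. The 19 that rose went from 0.196 to 0.424% of counts together. SNORD117, printed above with both boxes, was the most abundant of the risers named here, with 1224, 1391 and 1265 CPM without PNK and 2676, 2577 and 2897 CPM with it (log2 change 1.07, SE 0.160, adjusted p = 2.72e-07), and is lower with TMM (−2.01) and DESeq2 factors. SNORD22, of the SNHG1 host gene, read 18.6, 22.7 and 8.26 CPM without PNK and 142, 148 and 165 CPM with it, a rise not called with TMM (0.094, adjusted p = 0.745) or by the DESeq2 test (0.56, adjusted p = 0.0982). SNORD141A|copy3 went from 5 counts to 1395.

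U3, U8 and U13, C/D snoRNAs that act in rRNA processing and that carry a cap, did not move together. U8 (SNORD118) read 38.6, 36.5 and 42.6 CPM without PNK and 168, 148 and 156 CPM with it, 4.02-fold higher, and lower with TMM (−1.07) and DESeq2 factors. U13 (SNORD13) read 338, 428 and 249 CPM without PNK and 86.3, 88.7 and 74.1 CPM with it and fell by 2.03 on the log2 scale, although it is 2.83 higher with miRNA factors. U3, summed over its SNORD3 copies, stood at 0.0136, 0.0168 and 0.00481% without PNK and 0.0250, 0.0337 and 0.00867% with it. Library 3 was the lowest in both arms, and the U3 sum was not called (log2 change 0.93, SE 0.583, adjusted p = 0.171) unless the replicate number was a block (0.91, adjusted p = 0.000145) or both number-3 libraries were left out (0.95, adjusted p = 4.81e-09), or treated library 3 alone (1.32, adjusted p = 0.0394).

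The H/ACA snoRNAs, guides of pseudouridine, stood at 0.559, 0.694 and 0.156% without PNK and 0.223, 0.229 and 0.127% with it and were not called (log2 change −1.28, SE 0.551, adjusted p = 0.0591). Untreated library 3 overlapped the treated ones. Without it the change was −1.70 (adjusted p = 0.000668), with the replicate number as a block −1.08 (adjusted p = 0.0175), with TMM −4.41 (adjusted p = 0.000887) and with DESeq2 factors −3.93 (adjusted p = 0.000256). Row by row, 45 of 101 were lower, 34 higher and 22 not called. The 34 that rose made up 0.00923% without PNK and 0.0725% with it, and 15 overlap a coding exon. SNORA62, in RPSA, read 5.91, 6.05 and 3.81 CPM without PNK and 131, 126 and 132 CPM with it, and SNORA80E read 8.28, 10.4 and 5.01 CPM without PNK and 148, 167 and 189 CPM with it. The scaRNAs, guides of snRNA modification in Cajal bodies, stood at 0.130, 0.171 and 0.0504% without PNK and 0.0474, 0.0551 and 0.0242% with it and fell (log2 change −1.47, SE 0.510, adjusted p = 0.0298), yet are 3.38 higher with miRNA factors. That call was lost without untreated library 1 (adjusted p = 0.0792), untreated library 2 (0.0958), treated library 1 (0.0578) or treated library 3 (0.0856).

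The spliceosomal snRNAs of RNA polymerase II rose 7.55-fold (0.251, 0.212 and 0.227% without PNK and 1.83, 1.61 and 1.77% with it; log2 change 2.92, SE 0.107, adjusted p = 3.18e-07), a change that is −0.16 with TMM and not called with DESeq2 factors (0.24, adjusted p = 0.131). Of 35 tested rows 32 were higher, 1 lower and 2 not called, beside 86.2% higher over all tested rows. U2, which pairs with the branch point, rose 9.99-fold (0.101, 0.0838 and 0.100% without PNK and 0.984, 0.876 and 0.992% with it), a call lost with TMM (0.25, adjusted p = 0.0751). U11 and U12, of the minor spliceosome that removes rare introns, had larger log2 changes than U1, U2, U4 and U5, not tested against each other: RNU11 read 64.8, 66.3 and 64.5 CPM without PNK and 1602, 1433 and 1881 CPM with it and RNU12 read 93.5, 84.2 and 79.9 CPM without PNK and 1252, 1122 and 1342 CPM with it, which are 25.1-fold and 14.4-fold. U1 was 3.03 higher on the log2 scale, U4 2.38 and U5 1.45. With TMM U4 and U5 are lower (−0.70 and −1.62), as with DESeq2 factors, and U1 is not called (−0.06, adjusted p = 0.776, edgeR). U7, the snRNA of histone mRNA ends, was the called exception, at 0.0121, 0.0104 and 0.0173% without PNK and 0.00420, 0.00401 and 0.00462% with it (log2 change −1.64, SE 0.203, adjusted p = 0.000138), although higher with miRNA factors.

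U6 and 7SK, RNA polymerase III transcripts with a methyl cap on the gamma phosphate, were among the strongest risers of the structured RNAs. RN7SK, the scaffold that holds the elongation factor P-TEFb inactive, read 143, 152 and 131 CPM without PNK and 4851, 4823 and 4809 CPM with it, 33.98-fold higher. Its log2 change was 5.09 (edgeR, SE 0.186 and adjusted p = 3.46e-20 as a row, 0.117 and 4.48e-08 as a family sum). The spread between the treated libraries was small beside that difference. The 4 tested U6 rows, the catalytic snRNA of the spliceosome, all rose, and their sum rose from 0.000378 to 0.0125% (log2 change 5.04, SE 0.168). Both remained higher with TMM, by 2.002 for 7SK and 1.97 for U6.

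RNA polymerase III transcripts with an unmodified triphosphate differed widely, their family sums running from −0.21 for RMRP to 4.42 for vault RNA. Over 42 tested rows of this list, 40 were higher, 1 lower and 1 not called, where 86.2% of all tested rows were higher. The median was 1.60, compared with 5.09 for the 5 rows of the methyl cap list, 2.89 for 40 rows of capped polymerase II RNAs and 5.98 for all rows. With TMM the medians are −1.50, 2.00, −0.21 and 3.17. Of the 42 rows, 17 are near-identical 5S copies and 12 snaR copies, which set that median, and the lists were not tested against each other. The 5S rRNA stood at 0.402, 0.383 and 0.199% without PNK and 1.21, 0.974 and 0.791% with it and rose 3.02-fold (log2 change 1.60, SE 0.304, adjusted p = 0.00220). The signal recognition particle RNA RN7SL1 read 13.1, 11.6 and 11.5 CPM without PNK and 85.9, 80.5 and 60.1 CPM with it. RPPH1, the RNA of RNase P, which trims tRNA 5′ ends, read 69.8, 87.8 and 40.5 CPM without PNK and 549, 668 and 392 CPM with it. Its log2 change was 3.02 (edgeR, SE 0.242 and adjusted p = 1.01e-12 as a row, 0.356 and 0.000179 as a family sum). Its relative RMRP, of the RNase that cuts pre-rRNA, read 296, 290.1 and 275 CPM without PNK and 298, 297 and 148 CPM with it. As a family sum RMRP was not called (adjusted p = 0.473), though it is called lower with TMM (−3.30, adjusted p = 7.9e-05) and DESeq2 factors (−2.91, adjusted p = 3.09e-05). The 5S sum is lower with TMM and DESeq2 factors. With TMM the sums of 7SL (−0.31, adjusted p = 0.179, edgeR) and RPPH1 (−0.087, adjusted p = 0.816, edgeR) turn negative but are not called. With DESeq2 factors RN7SL1 is not called either (−0.037, adjusted p = 0.872, edgeR). The primate snaR RNAs rose 3.18-fold (adjusted p = 0.0193, edgeR), a call lost without treated library 1 (adjusted p = 0.0576) or treated library 2 (0.0572). They are lower with TMM and not called with DESeq2 factors (−1.02, adjusted p = 0.0672).

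Vault RNAs showed both directions within 4 genes. VTRNA2-1, which binds the kinase PKR and is not part of the vault particle, read 163, 147 and 175 CPM without PNK and 6017, 5051 and 6433 CPM with it, 35.99-fold higher (log2 change 5.17, SE 0.192, adjusted p = 4.33e-20), and made up most of the family with PNK. VTRNA1-1, the main vault particle RNA, read 138, 126 and 129 CPM without PNK and 633, 565 and 681 CPM with it (log2 change 2.26). It is lower with TMM. With DESeq2 factors it is −0.41, not called in edgeR (adjusted p = 0.0616) but called by the DESeq2 test (adjusted p = 0.0301). VTRNA1-2 read 4.18, 5.32 and 4.27 CPM without PNK and 16.8, 16.2 and 17.8 CPM with it (log2 change 1.88), also lower on those scales. VTRNA1-3 read 4.18, 5.68 and 5.66 CPM without PNK and 2.70, 3.37 and 1.97 CPM with it and fell (log2 change −0.95, SE 0.281, adjusted p = 0.00216), though it is 3.90 higher with miRNA factors and its counts are few. The arms did not overlap for any of the 4. Without PNK VTRNA2-1 and VTRNA1-1 were at like levels, and with PNK VTRNA2-1 was far above.

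The 4 Y RNAs, partners of the Ro60 protein, rose modestly, by 1.72-fold in sum (0.361, 0.341 and 0.407% without PNK and 0.610, 0.586 and 0.714% with it; log2 change 0.78, SE 0.121, adjusted p = 0.000780), and all 4 are lower with TMM and DESeq2 factors. RNY1 read 1582, 1531 and 1782 CPM without PNK and 2047, 2200 and 2396 CPM with it and RNY4 1517, 1421 and 1858 CPM without PNK and 2871, 2661 and 3468 CPM with it. RNY3 rose the most of them (log2 change 1.63, against 0.44 for RNY1, 0.91 for RNY4 and 0.96 for RNY5), from 233, 214 and 193 to 625, 598 and 759 CPM. The Y RNA pseudogenes, 0.493, 0.459 and 0.548% without PNK and 0.587, 0.558 and 0.710% with it, were not called as a sum (0.31, adjusted p = 0.0579), but were with the replicate number as a block (0.30, adjusted p = 0.00678), without untreated library 3 (0.38, adjusted p = 0.0312) and without both number-3 libraries (0.27, adjusted p = 0.0218). Among their 186 tested rows 101 were lower, 43 higher and 42 not called, and the first quartile was a log2 change of −4.75, near the miRNA median.

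**Figure D3:**
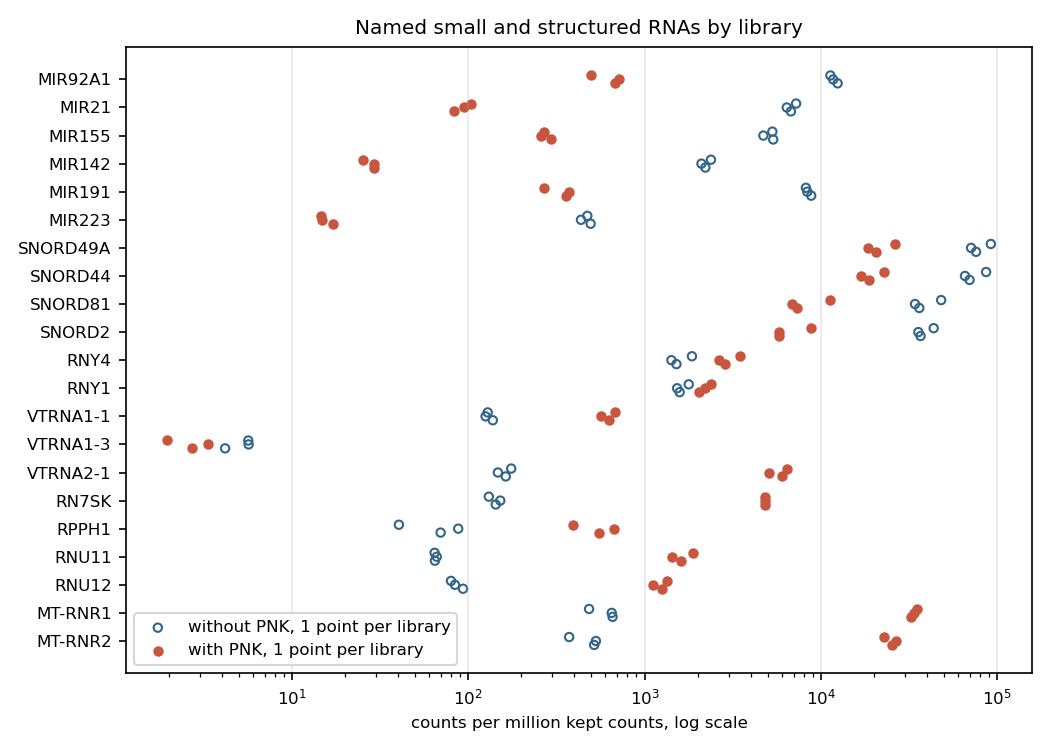
CPM (log axis) of named RNAs in each E4 library, open circles without PNK and filled circles with it. The miRNAs and C/D snoRNAs shift left with PNK and most other RNAs shift right, VTRNA1-3 excepted. Relative to miRNA factors the C/D snoRNAs, VTRNA1-3, MIR92A1 and MIR155 shift right, and relative to TMM the Y RNAs and VTRNA1-1 shift left. MIR191 with miRNA factors and RPPH1 with TMM change sign but are not called.

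Nuclear tRNAs rose 4.76-fold as a family (2.25, 2.06 and 2.03% without PNK and 9.94, 9.43 and 10.8% with it; log2 change 2.25, SE 0.0823, adjusted p = 3.18e-07), which is −0.83 with TMM and −0.42 with DESeq2 factors. The family sum hid a wide range: of 48 tested anticodons 27 were higher, 7 lower and the rest not called, with a median log2 change of 0.69, and with TMM 3 are higher and 43 lower. Over all subfamily sums, 101 were called (83.5%), 87 higher (71.9%) and 14 lower (11.6%). The glutamate tRNA Glu-CTC stood at 0.584, 0.514 and 0.447% without PNK and 6.74, 6.33 and 7.93% with it, 13.6-fold higher (log2 change 3.76, SE 0.155, adjusted p = 2.51e-07), and the sum of its copies was most of the nuclear tRNA count with PNK. Val-CAC rose 11.7-fold (0.0962, 0.0929 and 0.0784% without PNK and 1.10, 1.17 and 0.865% with it). Arg-TCT (3.51), Asp-GTC (3.24) and Ser-AGA (3.17) came next. Gly-GCC, at 0.175, 0.155 and 0.160% without PNK and 0.259, 0.254 and 0.251% with it, rose by 0.64 and is −2.44 with TMM.

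Ser-TGA went furthest the other way, from 0.305, 0.297 and 0.323% to 0.0261, 0.0269 and 0.0245%, 11.9-fold lower (log2 change −3.58, SE 0.103, adjusted p = 5.5e-08), though it is 1.28 higher with miRNA factors. Nearly all of this came from 1 gene copy, tRNA-Ser-TGA-1-1 on chromosome 10 (67764503 to 67764584, plus strand), with 3042, 2966 and 3221 CPM without PNK and 166, 186 and 144 CPM with it. Another copy, tRNA-Ser-TGA-3-1, read 4.64, 5.14 and 5.29 CPM without PNK and 34.2, 25.2 and 34.4 CPM with it and rose by 2.63, which is −0.44 with TMM. Lys-CTT (−1.47), Arg-CCT (−1.78), Arg-TCG (−1.79), Ile-TAT (−1.49), His-GTG (−1.12) and Thr-AGT (−0.96) also fell; all 6 are higher with miRNA factors.

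Copies of 1 anticodon could differ in direction. For Arg-CCT, tRNA-Arg-CCT-4-1 read 46.7, 41.7 and 47.9 CPM without PNK and 167, 127 and 120.4 CPM with it and rose by 1.60, negative with TMM and DESeq2 factors, while the other 4 tested copies fell, tRNA-Arg-CCT-5-1 with a log2 change of −4.60. Of 9 Glu-CTC copies 8 rose, between 3.54 and 3.93, but these copies are near-identical and do not count as separate observations. In untreated library 1 they held 7525 to 8243 counts each. No label or header says whether a read was placed at 1 copy or counted at each, and in the latter case the summed share would be overstated by up to 8-fold. Of 14 Lys-CTT copies 12 were lower and 1 higher, and of 16 Val-CAC copies 13 were higher and 0 lower, the most abundant being tRNA-Val-CAC-2-1 at 291, 263 and 267 CPM without PNK and 6316, 6716 and 5002 CPM with it.

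**Figure D4:**
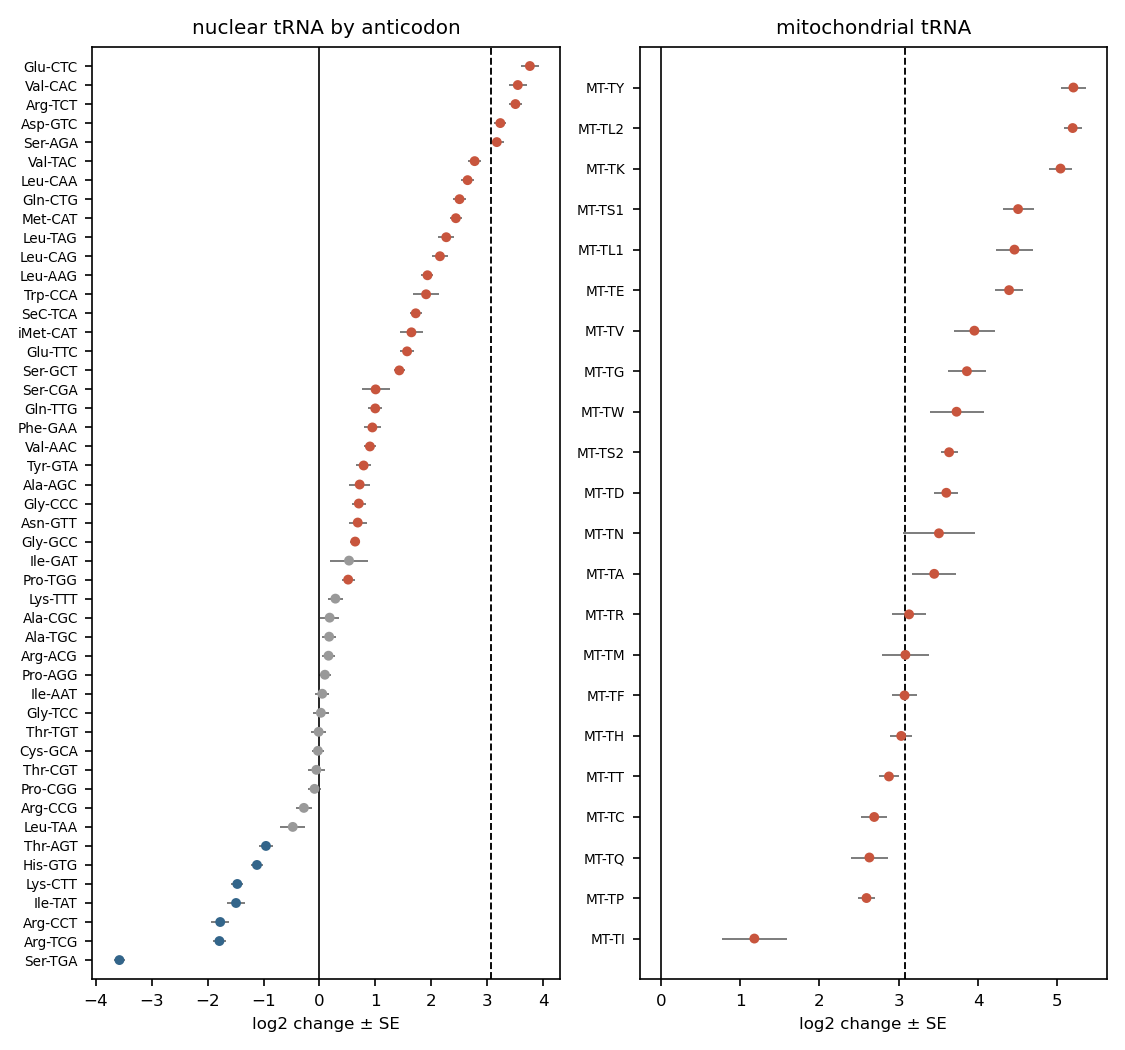
Log2 change in share ± SE with PNK against without in E4 (3 against 3 libraries) for nuclear tRNAs summed by anticodon and for mitochondrial tRNAs, red for higher, blue for lower and grey for not called; the dashed line is zero with TMM. Nuclear anticodons run from −3.58 for Ser-TGA to 3.76 for Glu-CTC, mostly left of the dashed line, and mitochondrial tRNAs from 1.18 to 5.20, on both sides of it.

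All 22 mitochondrial tRNAs rose on library totals, where 86.2% of all tested rows did, and with TMM 11 rows are higher and 2 lower. Their median log2 change was 3.55, above the nuclear median. MT-TY read 26.8, 22.02 and 29.1 CPM without PNK and 968, 1014 and 886 CPM with it (log2 change 5.20, SE 0.207, adjusted p = 1.53e-19) and MT-TL2 172, 166 and 158 CPM without PNK and 5974, 6472 and 5688 CPM with it. MT-TS2, for serine, was the most abundant with PNK, at 550.5, 498 and 539.5 CPM without PNK and 6555, 7003 and 6167 CPM with it, a log2 change of 3.63. MT-TI read 78.4, 102 and 28.4 CPM without PNK and 156, 166 and 151 CPM with it, the smallest rise (log2 change 1.18, SE 0.268, adjusted p = 0.000143), and is lower with TMM (−1.93) and DESeq2 factors. Its untreated library 3 was below libraries 1 and 2, and the arms did not overlap. MT-TI abuts and overlaps MT-TQ, so the pair shares reads.

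The mitochondrial rRNAs had the largest log2 change of the 29 family sums. MT-RNR1, the small subunit rRNA, read 659, 652 and 485 CPM without PNK and 32610, 33750 and 35100 CPM with it, 56.5-fold higher, and MT-RNR2, the large subunit rRNA, read 518, 530.3 and 374 CPM without PNK and 25290, 26650 and 22720 CPM with it. The family rose 54.7-fold (log2 change 5.77, SE 0.166, adjusted p = 1.19e-07) and remained 2.69 higher with TMM. The 8 other kept rows on the mitochondrial chromosome, which cover only parts of it, rose from 0.0452 to 1.55% (34.2-fold). Their sum was 2.02 higher on the log2 scale with TMM. Rows there adjoin each other, so reads at a border count for both neighbours. When only rows at least 26 bases apart were kept, the mitochondrial tRNA change was 3.93 and no rRNA row was left.

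The cytosolic rRNAs differed in size of change. The 18S rRNA of the small subunit stood at 0.257, 0.293 and 0.118% without PNK and 10.7, 10.5 and 9.65% with it, 46.1-fold higher (log2 change 5.53, SE 0.370, adjusted p = 3.22e-06), and stayed 2.42 higher with TMM. The 28S rRNA stood at 4.12, 4.05 and 4.34% without PNK and 17.98, 18.4 and 16.4% with it, 4.21-fold higher, but −1.002 with TMM and −0.61 with DESeq2 factors. The 5.8S rRNA, already short, stood at 5.54, 7.20 and 1.86% without PNK and 9.35, 9.37 and 9.48% with it and was not called (log2 change 0.95, SE 0.429, adjusted p = 0.0728). Untreated library 3 lay below the rest, and without it the 5.8S change was 0.56 (adjusted p = 0.000261); without untreated library 2 it was 1.35 (adjusted p = 0.0266). The rRNA gene copies are near-identical and are summed here, with the same limit as for tRNA copies. Cytosolic rRNA went from the third largest family to the largest.

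Outside the named families, rows that overlap coding exons went from 0.120% ± 0.00329 to 4.21% ± 0.107 (SD, n = 3), 35.1-fold, with 4225 of 4246 tested rows higher and 14 lower. Over all tested rows 86.2% were higher, a share to set beside this count and those of noncoding rows below. Rows were classed by exon overlap of any length on either strand, coding exons ahead of long noncoding ones. Their reads therefore need not lie in the exon. The summed share of mitochondrial pseudogenes was 27.3-fold higher with PNK and that of other pseudogenes 111-fold higher, at 1.35 and 0.827%; these share sequence with their parent genes. Rows on GENCODE long noncoding RNAs went from 0.223% ± 0.0101 to 0.189% ± 0.0105, although 169 of 180 were higher and 10 lower. Most of that sum without PNK was the MIR17HG row, at 1359, 1221 and 1138 CPM without PNK and 28.1, 32.99 and 27.8 CPM with it, which ends 32 bases from MIR17, and a row 38 bases from MIR24-2 (lnc-C19orf57-6|copy1), at 752, 712 and 839.5 CPM without PNK and 12.2, 14.9 and 15.3 CPM with it. Both fell as miRNAs did, by 5.39 and 5.76 on the log2 scale. MALAT1, a nuclear noncoding RNA, rose in all 4 tested rows, by 4.39 to 6.13, and NEAT1, the scaffold of paraspeckles, in all 3, by 3.18 to 6.82. The median log2 change over all tested rows was 5.98.

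To ask whether the effect of end repair differed in E4, it was set against the mean effect in the THP-1 groups A4 and A7, which the labels describe in the same terms and which have 3 libraries in each arm, in a single fit of 18 libraries. The THP-1 group G8, also with 3 libraries in each arm, was left out of this fit and used as an alternative. Its untreated libraries were known from earlier results to differ among themselves, so the choice was made with the data known. Of 29 family sums 1 differed (3.45%; 3 at an unadjusted p below 0.05), and of 9759 rows 2 did (0.0205%; 601 at an unadjusted p below 0.05). The family was vault RNA, whose log2 ratio of mean shares was 4.42 in E4, 3.59 in A4, 2.72 in A7 and 4.12 in the THP-1 group G8. Against A4 and A7 this is a difference of 1.26 (SE 0.282, adjusted p = 0.0105, edgeR), and with G8 added to the comparison 0.94 (adjusted p = 0.0461). The call was lost with DESeq2 factors (1.15, adjusted p = 0.0643) and against A4 alone (0.83, adjusted p = 0.142).

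VTRNA2-1 was the vault gene whose difference was called, at 1.59 (SE 0.310, adjusted p = 0.0273). In E4 it read as given above; A4 read 150.5, 160.1 and 198 CPM without PNK and 3488, 2726 and 4204 CPM with it, and A7 1642, 982 and 705 and 8615, 7906 and 6610 CPM. Untreated A7 libraries were all above those of E4 and A4, which overlapped, and treated E4 libraries were all above those of A4 and below those of A7. The call was lost with TMM (1.57, adjusted p = 0.296), with DESeq2 factors (1.48, adjusted p = 0.0916), with the G8 group added to the comparison (1.28, adjusted p = 0.687), against A4 alone (0.81, adjusted p = 0.441) and in 7 of 18 fits without a library, among them those without any 1 of the 3 untreated E4 libraries. VTRNA1-1 (0.46, adjusted p = 0.781), VTRNA1-2 (0.43, adjusted p = 0.781) and VTRNA1-3 (−0.38, adjusted p = 0.939) were not called, which does not show that they act alike.

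The other row was tRNA-Val-CAC-7-1, at −3.20 (SE 0.597, adjusted p = 0.0261). E4 read 31.8, 38.3 and 30.7 CPM without PNK and 37.2, 22.1 and 31.7 CPM with it, A4 10.9, 12.6 and 13.7 and 157, 832 and 30.3 CPM, and A7 22.1, 24.97 and 20.6 and 61.3, 76.8 and 32.2 CPM. The E4 arms overlapped, while every treated library of A4 and A7 was above the untreated ones, with treated A4 library 2 far above the rest. The call was lost with TMM (−3.26, adjusted p = 0.0668), with G8 added (−1.58, adjusted p = 0.774) and without untreated A7 library 1 (adjusted p = 0.0965), untreated E4 library 1 (0.0938) or untreated E4 library 2 (0.131). With the replicate number as a block the count of differing rows was 4, 2 in each direction.

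**Figure D5:**
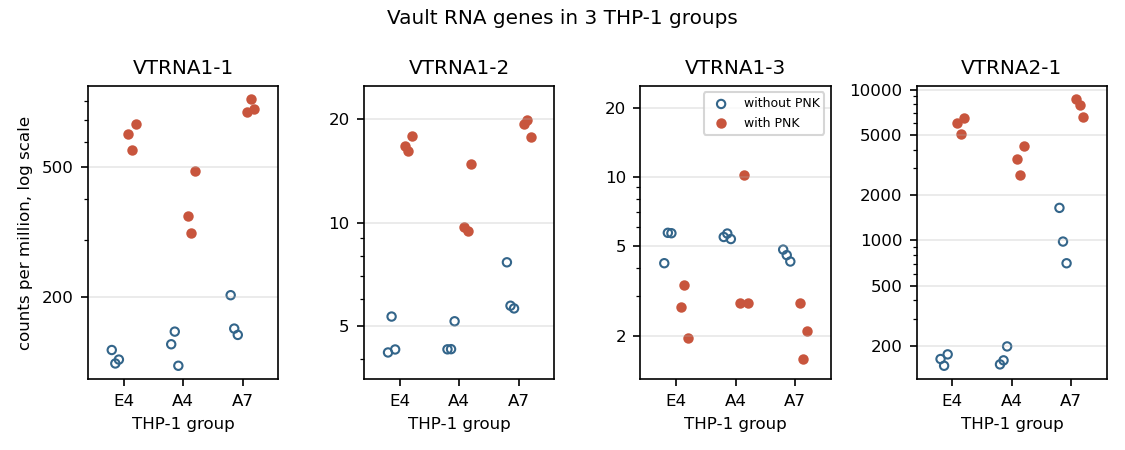
CPM (log axes) of the 4 vault RNA genes in E4, A4 and A7, open circles without PNK and filled circles with it, 1 point per library. VTRNA2-1 starts at 147 to 175 CPM in E4, at a like level in A4 and higher in A7, and with PNK is above the untreated level in all 3 groups.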

How the data were processed

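Small RNA was sequenced from 6 E4 libraries, 3 with and 3 without end repair, beside 12 of the THP-1 groups A4 and A7. The deposited table holds raw read counts of 175946 rows, from a non-coding RNA annotation on GRCh38 whose rows overlap. Per the submitters' processing notes, Trim Galore, FastQC, Bowtie2 2.3.5.1, SAMtools 1.9, deepTools 3.2.1 and bedtools 2.28.0 were used; the counting settings, multi-mapping and strand rules are not given in the sources used here. A read was counted 7.02 to 19.4 times over all E4 rows, which is why 86008 non-overlapping rows were kept before scaling, short structured RNAs first and longer rows after, with an overlap of up to 5 bases allowed. Counts include reads that begin outside a row, so hairpin arms and adjoining rows share reads.

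Rows, family sums and subfamily sums were each tested by quasi-likelihood, two-sided, on library totals (R 4.3.3, package edgeR at version 4.0.16), with Benjamini-Hochberg adjustment over all fitted and a threshold of 0.05. Rows passed edgeR's filterByExpr and sums needed 30 counts in all. The tested 7026 rows held 99.3 to 99.9% of counts. SEs are the log2 change divided by the square root of the F statistic. Alternatives were TMM, DESeq2 1.42.0 size factors, factors from the miRNA rows, the DESeq2 test, a replicate block, no filter, every deposited row and leaving out each library; leaving out both number-3 libraries and keeping rows at least 26 bases apart were chosen after seeing the data. The numbers 1 to 3 come from the sample titles, which name no shared culture or day. Deviations from the arm means correlated at 0.176, 0.236 and 0.392 for equal numbers and at 0.128 and 0.125 between libraries 1 and 2. Library 3 of either arm against libraries 1 and 2 of the other gave −0.20 to −0.32. On edgeR's log CPM pair 1 is 0.0798. All 3 pairs were above 0.1 on the first measure, but SEs and p-values are from the fit by arm only, without pairs, unless a block is named. Blocked values stand beside results whose call they change. The 18-library fit tested the effect in E4 minus the mean of those in A4 and A7. Counting intervals and limits of 3 counts cover counting error only, and no molecular identifiers are described. The fits were tested on simulated counts.

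Named are every family sum, the 10 largest rises and falls among family rows that are called, of at least median abundance and without overlap between arms, 5 each outside the families, the 10 most abundant rows of each arm, fixed members, and the 5 largest called differences between groups. The text gives those needed for each family, and adds MIR9, MIR6723, MIR10393, SNORD22, SNORD117, SNORA62, SNORA80E, lnc-ZNF860-1 and single tRNA copies, chosen after their values were seen. Of the fixed members, RNU6ATAC (6 counts without and 26 with PNK) and MIR451A (10 and 0) had too few counts to test. The members and lists were chosen with earlier results of these data known. Sequences are from GENCODE version 29 and RefSeq.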

Additional observations from a re-analysis of the deposited data

Results flagged for a closer look

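In E4, 3 results differed between THP-1 groups in a test of the difference itself, the end repair effect in E4 minus the mean of those in A4 and A7. The vault RNA family rose by 1.26 more on the log2 scale in E4 (adjusted p = 0.0105, edgeR; shares of 0.0303 and 0.648% without and with PNK in E4, 0.0321 and 0.388% in A4, 0.129 and 0.850% in A7). VTRNA2-1 rose by 1.59 more (adjusted p = 0.0273, edgeR), with a higher untreated level in A7 than in E4 or A4. It held 0.583% of the 0.648% family share in E4 with PNK, so the family and this row are not separate results. For tRNA-Val-CAC-7-1 the difference was −3.20 (adjusted p = 0.0261), with a spread from 30.3 to 832 CPM between the treated A4 libraries. All 3 calls are lost under at least 1 alternative, as given with each result.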

How the results depend on the processing

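Of 97 single changes, 97 kept direction and call with no filter, 94 with the replicate number as a block, 92 without both number-3 libraries and 86 with every deposited row. TMM, DESeq2 factors and miRNA factors turned 34, 27 and 20 of them, by their construction around another zero. With TMM the turned log2 changes were 18S, 28S and 5.8S rRNA −0.75, 5S pseudogenes −1.24, 5S rRNA −1.50, 7SL pseudogenes −0.083, 7SL RNA −0.31, nuclear tRNA −0.83, Pol II snRNA −0.16, Pol II snRNA pseudogenes −0.42, RPPH1 −0.087, snaR −1.44, U6atac −0.37, unnamed tRNA rows −0.16, Y RNA −2.29, Y RNA pseudogenes −2.76, 28S rRNA −1.002, 5.8S rRNA −2.17, Gln-CTG −0.57, Gly-GCC −2.44, U1 −0.060, U4 −0.70, U5 −1.62, U3 −2.19, U8 (SNORD118) −1.07, SNORD117 −2.01, VTRNA1-1 −0.82, VTRNA1-2 −1.20, RNY1 −2.63, RNY3 −1.45, RNY4 −2.16, RNY5 −2.12, RN7SL1 −0.43, MT-TI −1.93, Ser-TGA-3-1 −0.44 and Arg-CCT-4-1 −1.47. With DESeq2 factors they were 18S, 28S and 5.8S rRNA −0.30, 5S pseudogenes −0.83, 5S rRNA −1.06, nuclear tRNA −0.42, Pol II snRNA pseudogenes −0.015, snaR −1.02, Y RNA −1.89, Y RNA pseudogenes −2.37, 28S rRNA −0.61, 5.8S rRNA −1.68, Gln-CTG −0.18, Gly-GCC −2.04, U4 −0.29, U5 −1.23, U3 −1.73, U8 (SNORD118) −0.68, SNORD117 −1.60, VTRNA1-1 −0.41, VTRNA1-2 −0.79, RNY1 −2.24, RNY3 −1.03, RNY4 −1.77, RNY5 −1.71, RN7SL1 −0.037, MT-TI −1.46, Ser-TGA-3-1 −0.037 and Arg-CCT-4-1 −1.09; the DESeq2 test gave like values for single rows (SNORD117 −1.60, VTRNA1-1 −0.41, VTRNA1-2 −0.79, RNY1 −2.24, RNY3 −1.03, RNY4 −1.77, RNY5 −1.71, RN7SL1 −0.036, MT-TI −1.46, Ser-TGA-3-1 −0.038 and Arg-CCT-4-1 −1.09). With miRNA factors they were C/D snoRNA 2.78, H/ACA snoRNA 3.57, miRNA 0.038, RMRP 4.64, scaRNA 3.38, His-GTG 3.75, Lys-CTT 3.40, Arg-CCT 3.10, Ser-TGA 1.28, U7 3.23, U13 (SNORD13) 2.83, MIR155 0.64, MIR92A1 0.63, MIR191 0.20, SNORD49A 3.002, SNORD44 2.95, SNORD81 2.65, SNORD2 2.35, VTRNA1-3 3.90 and Ser-TGA-1-1 0.64. With every deposited row they were H/ACA snoRNA 0.057, rows outside the families −0.16, RMRP 1.10, His-GTG 0.18 and VTRNA1-3 0.35. RMRP was 0.051 without treated library 3 and 0.021 without both number-3 libraries; except where a value above shows it, the cause was not tested.

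Calls were lost without a turn in direction with TMM for U6atac pseudogenes 0.44, Asp-GTC 0.16, U2 0.25 and SNORD22 0.094, with DESeq2 factors for 7SL pseudogenes 0.33, 7SL RNA 0.094, Pol II snRNA 0.24, RPPH1 0.36, U6atac 0.017, U6atac pseudogenes 0.84 and unnamed tRNA rows 0.28, with miRNA factors for MIR223 −0.047 and MIR16-1 −0.13, with every deposited row for scaRNA −0.18, Lys-CTT −0.17 and U7 −0.32, and by the DESeq2 test for SNORD22 0.56. Calls were gained with TMM for H/ACA snoRNA −4.41 and RMRP −3.30, with DESeq2 factors for H/ACA snoRNA −3.93 and RMRP −2.91, with miRNA factors for Y RNA pseudogenes 5.18, 5.8S rRNA 5.81 and U3 5.78 and with every deposited row for Y RNA pseudogenes 1.61, 5.8S rRNA 2.22 and U3 2.24.

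Rows called numbered 15029 (13969 higher) with no filter and 32467 (30406 higher, 2061 lower) with every deposited row, and 7387 to 7968 (6672 to 7172 higher, 709 to 809 lower) when each library was left out. Lower rows numbered 1282 with TMM, 1235 with DESeq2 factors, 1226 with the DESeq2 test and 92 with miRNA factors. Higher family sums numbered 9 with TMM and 9 with DESeq2 factors, lower ones 12, 10 and, with miRNA factors, 0; leaving out a library gave 24 to 28 called, 22 to 24 higher and 2 to 4 lower. Higher subfamily sums numbered 26 with TMM and 35 with DESeq2 factors, lower ones 74 and 66, 0 with miRNA factors and 7 with every deposited row; leaving out a library gave 99 to 104, 86 to 89 higher and 13 to 15 lower.

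For the difference between groups, family sums numbered 0 with DESeq2 factors (0 higher) and 0 against A4 alone (0 higher), and 1 to 3 higher and 0 lower when a library was left out. Rows numbered 0 with TMM (0 higher, 0 lower), 1 with DESeq2 factors (0 higher), 0 with G8 added (0 higher, 0 lower), 1 against A4 alone (0 higher), 54 against A7 alone (43 higher, 11 lower), 6 with no filter (5 lower), and 0 to 7 (0 to 1 higher, 0 to 6 lower) when a library was left out. With the replicate block 4 rows differed, 2 higher and 2 lower. In E4 the block gave 6789 rows called, 28 families and 107 subfamilies, and of 100 single results it changed the calls of H/ACA snoRNA, Y RNA pseudogenes and U3 and no others. Leaving out a library gave 1.09 to 1.37 for the vault RNA difference, 1.40 to 1.71 for VTRNA2-1 and −3.47 to −2.27 for tRNA-Val-CAC-7-1.

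With rRNA left out of the total, C/D snoRNA stood at 73.4 and 30.5%, miRNA at 20.8 and 1.29%, nuclear tRNA at 2.34 and 19.6%, mitochondrial rRNA at 11.5% with PNK and mitochondrial tRNA at 0.324 and 7.73%. Over the named families alone, the shares with PNK were 0.725% for miRNA, 53.5% for rRNA, 11% for nuclear tRNA, 6.43% for mitochondrial rRNA and 4.33% for mitochondrial tRNA. With 3 libraries in each arm and 0 to 3 counts in some rows, the largest folds are limited by depth.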

Other observations

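Of the rows outside the named families, 37 were lower with PNK. Some of them adjoin a small RNA row or are small RNAs themselves, and 2 end within 25 bases of a small RNA row (5.41%), compared with 17 of 5403 that were higher (0.315%). Others lie far from any, and the cause of their fall was not tested. The row lnc-ZNF860-1, which overlaps an exon of ZNF860, fell from 328.9 to 9.73 CPM (log2 change −5.08, adjusted p = 7.61e-19, edgeR), and its nearest small RNA row is 9380 bases away. The row lnc-FAM212B-4, which overlaps an exon of the potassium channel gene KCND3, fell from 19.2 to 0.277 CPM (log2 change −6.08). Its nearest small RNA row is 206445 bases away. Both are also lower with TMM and DESeq2 factors, as those scales shift rows down.

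MIR9, best known from neural progenitors, was well above zero in these monocytic cells. Its 3 loci, which encode the same mature miRNA and so share reads, read 856, 818 and 911 CPM (MIR9-1), 856, 818 and 915 CPM (MIR9-2) and 845, 779 and 874 CPM (MIR9-3) without PNK. With PNK they read 7.53 to 9.70 CPM.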
